A study of Homo sapiens with 10 samples.

Results

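The genes described here are 42 transcripts of the G2 and mitosis program in HEK293T cells, a widely used line derived from human embryonic kidney, out of 78894 gene identifiers in the deposited table. They were chosen by name, as a module of genes known for entry into mitosis, the spindle, chromosome segregation and cytokinesis. The rule used no measured value, but the module was chosen with earlier results of these data known. All 42 had a single identifier, and all 42 passed a filter of at least 10 normalized counts in at least 3 of the 10 libraries, which kept 29045 genes. Poly(A) RNA was sequenced after 24 h without cysteine (0X-Cys, 2 libraries), in medium with the complete amount of cysteine (1X-Cys, 4 libraries) or in medium with 10 times that amount (10X-Cys, 4 libraries). The study's methods describe cysteine-free, complete and 10-fold media for these cells, based on DMEM made without cysteine and methionine, with components added back. Another starvation protocol there used complete DMEM as the control. The RNA methods do not name which protocol was followed. The labels name no genetic change in the cells. The line itself carries the SV40 large T antigen, which binds the RB family of cell cycle repressors, in every group. The labels call the libraries biological replicates of a single line, so the spread below is the spread between cultures of that line.

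The module codes for the machinery that cells build late in the cell cycle. CDK1 and its cyclins start mitosis, the Polo and Aurora kinases organise the spindle, and the spindle checkpoint holds back the anaphase-promoting complex, a ubiquitin ligase, until every chromosome is attached. Transcription of these genes peaks in G2, and in the quiet phases of the cycle many of them are repressed by the DREAM complex, whose LIN54 subunit binds a short promoter element called the cell cycle genes homology region. NF-Y bound to CCAAT boxes and the factors MYBL2 and FOXM1 raise their transcription. In bulk RNA, fewer cells in G2 or mitosis and less of these mRNAs per cell cannot be told apart.

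Reads on genes numbered between 34836014 and 61654861 per library, with a median of 40850704. The HEK293 marker genes (8 of 8 at 10 or more in every library) were present, whereas the summed level of 7 liver genes stayed between 4.56 and 37.1 normalized counts and that of 7 T cell genes between 13.7 and 24.4, with AFP, APOB, PTPRC and CD3E below 10 in all libraries. Of the 6 breast epithelial genes KRT7 and TFAP2B were below 10 in all libraries, and the sum of the list lay between 2787 and 3381. The share of reads on the mitochondrial genome differed with the medium. It was 5.15 to 5.71% in 0X-Cys, 4.51 to 5.05% in 1X-Cys and 0.117 to 0.146% in 10X-Cys. When each library was scaled to an equal total over nuclear genes, the counts of members called lower stayed at 34 in 10X-Cys and 13 in 0X-Cys.

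The promoter windows of the module were read from RefSeq on GRCh38.p14, which held entries for 36 of the 42 genes, without AURKA, BIRC5, FOXM1, TPX2, TTK and UBE2C. Each window runs from 250 bases before to 50 bases after an annotated start. The letters TTTGAA or TTCGAA, forms of the core of the cell cycle genes homology region, were searched on both strands. They were found in 28 of 36 members (77.8%) and in 19.5% of 27305 genes with such a window. Other forms of that core were not searched, so a window without a match may still hold the element. CCAAT, also on both strands, was found in 32 members (88.9%) and 39.7% of genes, and at least 2 copies in 21 members (58.3%) and 12.9% of genes. Both motifs were present in 26 members (72.2%) and 7.85% of genes. The motifs can overlap by a few letters, as in MKI67, and a match of letters describes the sequence only. Of the 30 members with a window that were called lower in 10X-Cys, 24 held the first motif, as did 4 of the 6 that were not.

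The 120 bases before the start are printed for 5 of the genes whose levels are given library by library and whose stretch holds no annotated exon. CDC25C also has an annotated start with such a stretch, which holds neither motif and is not printed. KIF20A had the largest fall of the module, CDC20, MKI67 and TOP2A fell less, and CDK1 did not fall. Capitals mark TTTGAA and, on either strand, the CCAAT box. KIF20A is at chr5:138178992-138179111 (plus strand), CDC20 at chr1:43358861-43358980 (plus), MKI67 at chr10:128126424-128126543 (minus), TOP2A at chr17:40417897-40418016 (minus) and CDK1, for the first of its 2 annotated starts, at chr10:60778211-60778330 (plus).
KIF20A: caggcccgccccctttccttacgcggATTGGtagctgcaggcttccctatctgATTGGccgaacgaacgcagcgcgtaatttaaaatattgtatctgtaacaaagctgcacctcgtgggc
CDC20: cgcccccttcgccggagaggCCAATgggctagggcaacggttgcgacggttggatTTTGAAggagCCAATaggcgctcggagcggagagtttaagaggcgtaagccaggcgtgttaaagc
MKI67: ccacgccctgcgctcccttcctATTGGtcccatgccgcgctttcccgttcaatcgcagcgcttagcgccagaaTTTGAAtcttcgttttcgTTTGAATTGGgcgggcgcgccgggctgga
TOP2A: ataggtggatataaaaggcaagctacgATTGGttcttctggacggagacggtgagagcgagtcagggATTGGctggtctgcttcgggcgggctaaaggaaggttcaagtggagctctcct
CDK1: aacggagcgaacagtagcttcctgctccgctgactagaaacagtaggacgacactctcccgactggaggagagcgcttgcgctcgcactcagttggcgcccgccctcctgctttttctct
In KIF20A the stretch held 2 CCAAT boxes on the minus strand and no TTTGAA. In MKI67 the second TTTGAA ran into a CCAAT box on the strand opposite to the one printed. The CDK1 stretch held neither motif, and the full window of that start held 1 copy of each, farther upstream. The full window of its other annotated start, which includes annotated exons, held 3 copies of the first motif and 2 of CCAAT.

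Per kilobase of annotated exon, the module was led in 1X-Cys by UBE2C, the ubiquitin-conjugating enzyme of the anaphase-promoting complex, with a mean level of 3169 normalized counts per kb, followed by CDC20 (2933), CCNB1 (2854) and TOP2A (2773). At the other end were KIF18A (220), CDC25C (254) and CENPE (323). In 10X-Cys the leading gene was TOP2A at 1960 per kb, and CENPE was the lowest at 132. Per gene, 39 of the 42 members had a mean of at least 1000 normalized counts over all libraries, between 676 for the lowest and 24584 for the highest. Within the 1X-Cys libraries the coefficient of variation of a member was 4.97% at the median.

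Excess cysteine was accompanied by lower levels of most of the module. In 10X-Cys against 1X-Cys, 34 of 42 members were called lower (limma, Benjamini-Hochberg adjusted p of 0.01 or less over all 29045 genes) and 1 higher, against a background of 22.9% of all genes called lower and 23.1% called higher. Among the 8791 genes with a mean of at least 1000, the level of most members, 38.8% were called lower. The median log2 fold change was -0.50 over the members and 0.01 over all genes. At least 2-fold falls were called for 8 members, KIF20A, CENPE, CCNB1, DLGAP5, BUB1B, PLK1, HMMR and AURKA, against 3.74% of all genes.

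Cysteine starvation went with a smaller shift. In 0X-Cys against 1X-Cys, 13 members were called lower and 0 higher, against backgrounds of 8.51% and 7.39%, and no member fell by 2-fold (0.661% of all genes did). Of genes with a mean of at least 1000, 19.5% were called lower. The count of 0 higher was the same in edgeR and in DESeq2, while the count lower was 14 in edgeR, which added KIF23, and 16 in DESeq2, which added KIF23, PLK1 and ECT2. By limma 4 members were higher at an unadjusted p under 0.05. The 13 were CCNB1, AURKA, INCENP, CDCA8, BUB1, BUB1B, MAD2L1, CDC20, PTTG1, KIF20A, CENPE, DLGAP5 and ANLN, and the median of all members was -0.19. This count rested on both starved libraries, since it was 4 without 0X-Cys replicate 1 and 3 without replicate 2, where the remaining library was assumed to vary like the other group. CDC20 and KIF20A kept the call without any library. CCNB1, AURKA, INCENP, CDCA8, BUB1, BUB1B, MAD2L1, PTTG1, CENPE, DLGAP5 and ANLN each lost it in a fit that left out a starved library.

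All 13 members called lower in 0X-Cys were also called lower in 10X-Cys, a comparison with the same 1X-Cys libraries. The shared libraries tie both comparisons together for every gene, and this overlap was not counted over all genes. By limma a further 21 were called lower in 10X-Cys and not in 0X-Cys, among them KIF23, PLK1 and ECT2, and 7 were called in neither. Compared directly, which leaves the 1X-Cys libraries out, 31 members were higher in 0X-Cys than in 10X-Cys and 2 were lower, against 23.6% and 24.4% of all genes, with a median log2 fold change of 0.34. Of genes with a mean of at least 1000, 34.1% were called higher and 35.1% lower. DESeq2 called 29 members higher, without CENPE (adjusted p = 0.0713) and CENPF (adjusted p = 0.0211). At least 2-fold differences were called for HMMR and KIF20A, against 5.42% of all genes. The mean levels of 27 members stood in the order 10X-Cys, 0X-Cys, 1X-Cys from low to high. For 10 of them limma called each of the 3 comparisons in that order. The share of all genes with that order or those calls was not counted, so neither count has a background.

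**Figure D1:**
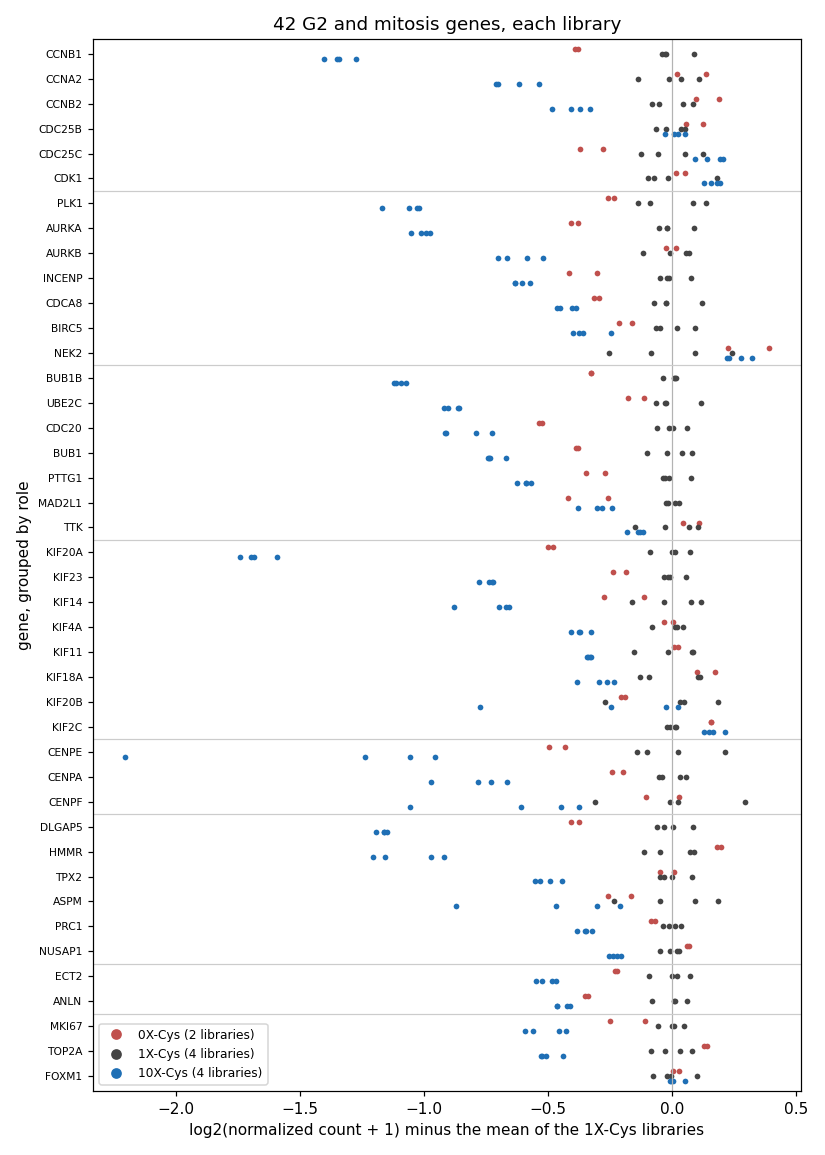
Each point is the level of a gene in a library, as log2(normalized count + 1) minus the mean of the 4 1X-Cys libraries on the x axis, for the 42 genes on the y axis grouped by role (red 0X-Cys, dark grey 1X-Cys, blue 10X-Cys). The blue points lie left of the dark grey ones without overlap in 33 genes, and the red points in 22, against 25.5% and 23.6% of all genes.

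Taken library by library, the median member stood at -0.17 and -0.19 log2 units from the 1X-Cys mean in the 0X-Cys libraries, between -0.06 and 0.07 in the 1X-Cys libraries and between -0.57 and -0.45 in the 10X-Cys libraries. Reads on the module made up 0.522 and 0.535% of nuclear reads in 0X-Cys, 0.544 to 0.572% in 1X-Cys and 0.389 to 0.421% in 10X-Cys. The 3 groups did not overlap in either measure. For single genes, all libraries of 10X-Cys lay below all of 1X-Cys in 33 members, against 25.5% of genes, and those of 0X-Cys did so in 22, against 23.6%. Of genes with a mean of at least 1000, this held for 3587 of 8791 in 10X-Cys and 3430 of 8807 in 0X-Cys.

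Among the 6 genes for entry into mitosis, the 3 cyclins were called lower in 10X-Cys, and CDK1 and the CDC25 phosphatases were not. Of all genes, 22.9% were called lower there. CCNB1, the B-type cyclin that drives CDK1 into mitosis (chr5:69167135-69178245 in GENCODE release 44), had 5343 and 5299 normalized counts in 0X-Cys. In 1X-Cys it had 7392, 6825, 6810 and 6746, and in 10X-Cys 2736, 2623, 2868 and 2720. The 3 media did not overlap, and CCNB1 was 2.54-fold lower in 10X-Cys than in 1X-Cys (log2 fold change -1.34, SE 0.04, limma adjusted p = 1.96e-13) and 1.30-fold lower in 0X-Cys (-0.38, SE 0.05, limma adjusted p = 2.03e-04). The exact permutation test over libraries gave p = 0.029 for 4 against 4 libraries and p = 0.067 for 2 against 4, each the smallest that design allows.

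CDK1, the kinase itself (chr10:60778331-60794852), had 4624 and 4747 normalized counts in 0X-Cys, 4527, 4350, 5181 and 4280 in 1X-Cys and 5224, 5097, 5186 and 4998 in 10X-Cys. The 10X-Cys libraries overlapped with 1X-Cys through 1X-Cys replicate 3 alone. Its difference of 0.17 (95% interval 0.05 to 0.28, limma adjusted p = 0.0133) did not pass the threshold. CDK1 was 1.09-fold lower in 0X-Cys than in 10X-Cys (limma adjusted p = 8.36e-03), a call lost without either 0X-Cys library (limma adjusted p = 0.085 without replicate 1 and 0.0221 without replicate 2) and without 10X-Cys replicate 1, 2 or 3 (0.0183, 0.0127 and 0.0235).

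CCNA2 and CCNB2, the A-type cyclin of S and G2 phase and the second B-type cyclin, fell in 10X-Cys by 0.64 and by 0.40 on the log2 scale, whereas their differences in 0X-Cys were 0.08 and 0.14 and did not pass. The CDC25 phosphatases remove inhibitory phosphates from CDK1. CDC25B stayed close in all media, with a difference of 0.02 (95% interval -0.07 to 0.10) in 10X-Cys. CDC25C (chr5:138285269-138338355), the lowest member per kb but for KIF18A in 1X-Cys, had 697 and 653 normalized counts in 0X-Cys, 876, 923, 775 and 813 in 1X-Cys and 903, 932, 975 and 966 in 10X-Cys. Its starved libraries were the lowest, and CDC25C was the member with the clearest opposite order, 1.40-fold lower in 0X-Cys than in 10X-Cys (log2 fold change -0.48, SE 0.07, limma adjusted p = 7.45e-07). Neither difference from 1X-Cys passed (-0.32 in 0X-Cys, limma adjusted p = 0.0172, and 0.16 in 10X-Cys, limma adjusted p = 0.0449).

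Of the 7 mitotic kinases and passenger complex genes, 6 were called lower in 10X-Cys and 3 in 0X-Cys, against 22.9% and 8.51% of all genes. The 0X-Cys calls, of AURKA, INCENP and CDCA8, did not hold in every fit with a library left out. PLK1, the Polo kinase of mitotic entry and spindle assembly (chr16:23677656-23690367), had 5238 and 5155 normalized counts in 0X-Cys, 6779, 5801, 6548 and 5606 in 1X-Cys and 3026, 2744, 2955 and 3038 in 10X-Cys. The 10X-Cys libraries lay far below the rest, 2.10-fold under 1X-Cys (-1.07, SE 0.06, limma adjusted p = 1.12e-10), while the starved libraries lay just under the lowest 1X-Cys library and their difference of -0.25 did not pass (limma adjusted p = 0.0224), though it did in DESeq2 (adjusted p = 6.73e-03). PLK1 shares 611 exon bases with annotated neighbours.

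AURKA, the centrosomal Aurora kinase (chr20:56369389-56392337), had 2626 and 2675 normalized counts in 0X-Cys. It had 3704, 3358, 3426 and 3432 in 1X-Cys and 1751, 1770, 1727 and 1678 in 10X-Cys. The media again formed 3 separate ranges, with AURKA 2.01-fold lower in 10X-Cys (-1.01, SE 0.05, limma adjusted p = 1.39e-11) and 1.31-fold lower in 0X-Cys (-0.39, SE 0.06, limma adjusted p = 3.61e-04). The passenger complex places AURKB at centromeres. In 10X-Cys all 4 of its genes fell, AURKB by 0.62, the scaffold INCENP by 0.61, borealin (CDCA8) by 0.43 and survivin (BIRC5) by 0.34 on the log2 scale. In 0X-Cys INCENP and CDCA8 fell, by 0.36 and by 0.30, while AURKB had a difference of 0.00 (95% interval -0.14 to 0.13) and BIRC5 one of -0.19 that did not pass. NEK2, a centrosome kinase, differed from the group. Its values were 1716 and 1922 in 0X-Cys, 1229 to 1734 in 1X-Cys and 1711 to 1832 in 10X-Cys, and its differences of 0.31 in 0X-Cys (limma adjusted p = 0.0537) and 0.26 in 10X-Cys (limma adjusted p = 0.0101) did not pass. The latter passed in edgeR (adjusted p = 9.49e-03) and in DESeq2 (adjusted p = 6.21e-03).

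The group of spindle checkpoint genes with cofactors and a substrate of the anaphase-promoting complex held the most calls in starved cells. Of its 7 members 5 were called lower, against 8.51% of all genes. Of genes with a mean of at least 1000, 19.5% were called lower in 0X-Cys. The 0X-Cys calls of BUB1, BUB1B, MAD2L1 and PTTG1 did not hold in every fit with a library left out. CDC20, the activator of the anaphase-promoting complex and the target of the checkpoint (chr1:43358981-43363203), had 4107 and 4065 normalized counts in 0X-Cys, 6162, 5926, 5661 and 5856 in 1X-Cys and 3128, 3139, 3415 and 3573 in 10X-Cys. No ranges overlapped. The fall of CDC20 in 0X-Cys was the largest of any member there, 1.44-fold (-0.53, SE 0.05, limma adjusted p = 1.51e-05), and in 10X-Cys it fell 1.78-fold (-0.83, SE 0.05, limma adjusted p = 2.67e-10). The checkpoint kinase BUB1 fell by 0.38 in 0X-Cys and by 0.72 in 10X-Cys. Its partner BUB1B, which binds CDC20, fell by 0.33 and by 1.10. MAD2L1, the CDC20 inhibitor, fell by 0.34 in 0X-Cys and by 0.30 in 10X-Cys, and the starved and excess libraries did not differ beyond their spread (difference -0.04, 95% interval -0.14 to 0.06). Securin (PTTG1), the anaphase inhibitor that the complex destroys, fell by 0.31 and by 0.59. UBE2C fell by 0.88 in 10X-Cys and had an uncalled -0.14 in 0X-Cys. TTK, the kinase at the top of the checkpoint, was not called, with -0.14 in 10X-Cys (limma adjusted p = 0.033) and 0.08 in 0X-Cys.

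The 8 kinesins, motors that move along or depolymerise microtubules, included the largest fall of the module in 10X-Cys and the single rise called by limma. KIF20A, the motor of the central spindle that carries the passenger complex (chr5:138178719-138187723), had 2911 and 2869 normalized counts in 0X-Cys. It had 4266, 4053, 3814 and 4090 in 1X-Cys and 1344, 1211, 1249 and 1261 in 10X-Cys. Its 10X-Cys level was 31.2% of that in 1X-Cys, the largest fall of the module (3.20-fold, log2 fold change -1.68, SE 0.05, limma adjusted p = 6.31e-14), and its 0X-Cys level lay between them (-0.49, SE 0.06, limma adjusted p = 6.63e-05). KIF20A shares 206 exon bases with BRD8 and CDC23. Central spindle partner KIF23 fell by 0.74 and KIF14 by 0.72 in 10X-Cys. The chromosome motors KIF4A, KIF18A and the spindle-pole motor KIF11 fell by 0.37, by 0.29 and by 0.33. None of these 5 was called by limma in 0X-Cys, where KIF23 came nearest (-0.21, limma adjusted p = 0.0103). KIF23 passed there in edgeR (adjusted p = 9.25e-03) and in DESeq2 (adjusted p = 3.73e-03).

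KIF2C, a microtubule depolymerase at centromeres (chr1:44739818-44767767), was the exception. It had 3493 and 3493 normalized counts in the 0X-Cys libraries, 3167, 3165, 3088 and 3119 in 1X-Cys and 3427, 3482, 3639 and 3513 in 10X-Cys. All libraries of both altered media lay above all of 1X-Cys, and KIF2C was 1.12-fold higher in 10X-Cys (0.17, SE 0.04, limma adjusted p = 2.07e-03). It was the only member called higher by limma, where edgeR and DESeq2 each called 2. KIF2C shares 175 exon bases with another annotated gene. Without 10X-Cys replicate 3 the limma call of KIF2C was lost (limma adjusted p = 0.0122). In 0X-Cys the difference of 0.16 did not pass (limma adjusted p = 0.0468).

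**Figure D2:**
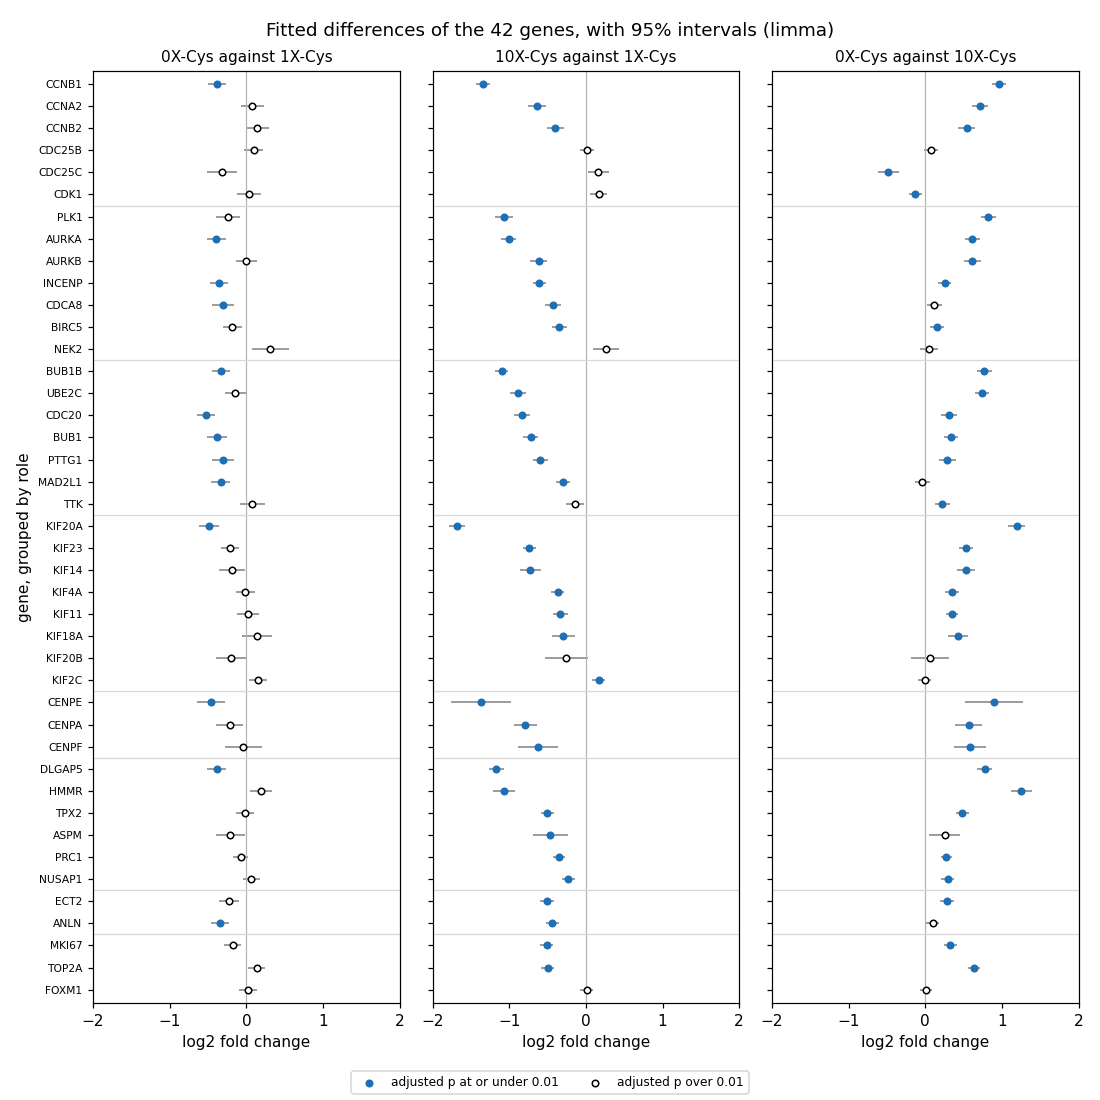
Log2 fold changes (x axis) of the 42 genes (y axis, grouped by role) with 95% limma intervals in the 3 comparisons, where filled points passed an adjusted p of 0.01. In 10X-Cys against 1X-Cys 34 filled points lie left of 0 and 1, KIF2C, to the right, and in 0X-Cys against 1X-Cys 13 lie to the left.

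All 3 centromere genes were called lower in 10X-Cys, against 22.9% of all genes. CENPE, the kinetochore motor that brings chromosomes to the spindle equator (chr4:103105349-103198445), had 2364 and 2262 normalized counts in 0X-Cys. In 1X-Cys it had 2980, 3243, 3707 and 2897, and in 10X-Cys 1537, 1646, 692 and 1352. The 3 ranges were apart, and CENPE was 2.57-fold lower in 10X-Cys (-1.36, SE 0.19, limma adjusted p = 7.55e-06) and 1.38-fold lower in 0X-Cys (-0.46, SE 0.09, limma adjusted p = 1.37e-03). Its interval was the widest of the module, and 10X-Cys replicate 3 stood far under the others. Without that library the fall in 10X-Cys was -1.08 (limma adjusted p = 2.42e-08). CENPA, the histone that marks the centromere, fell by 0.79 and CENPF, a large kinetochore protein, by 0.62 in 10X-Cys, and neither was called in 0X-Cys (-0.22 and -0.04).

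The same 10X-Cys library was the lowest of its group for CENPF (6149 against 8397 to 9868), ASPM (4359 against 5776 to 6893) and KIF20B (1977 against 2854 to 3443). In 1X-Cys, replicate 3 was the highest library for CENPE, CENPF, ASPM and KIF20B, with 15712 for CENPF where the others had 10315 to 13003. These 4 genes had the largest coefficients of variation of the module in 10X-Cys, 18.9 to 32.7%, where the other 38 had at most 9.66%. Their longest coding transcripts run from 6441 to 11085 bases and hold 34.3 to 40.8% G and C, against a median of 46.3% for the other 38. KIF20B and CENPE had the lowest G and C shares of the module. MKI67 has a longer transcript (12716 bases, 48.3% G and C) with a coefficient of variation of 5.57% in 10X-Cys. KIF14 (7291 bases, 38.3% G and C) had 6.92%. The part of length or base composition in these values was not tested. Without 10X-Cys replicate 3, CENPF and ASPM were still lower in 10X-Cys (-0.48 and -0.33), and KIF20B stayed uncalled (-0.08).

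Among the 6 spindle assembly genes all were called lower in 10X-Cys and only DLGAP5 in 0X-Cys, against 22.9% and 8.51% of all genes. HMMR, a microtubule-binding protein of the spindle poles (chr5:163460203-163491941), had 2818 and 2784 normalized counts in 0X-Cys, 2579, 2377, 2610 and 2268 in 1X-Cys and 1252, 1297, 1063 and 1100 in 10X-Cys. Its starved libraries were the highest and its excess libraries the lowest, with no overlap. HMMR was 2.09-fold lower in 10X-Cys than in 1X-Cys (-1.06, SE 0.07, limma adjusted p = 8.25e-10) and 2.38-fold higher in 0X-Cys than in 10X-Cys (1.25, SE 0.07, limma adjusted p = 4.80e-14), the widest gap of any member between those media, while its 0.19 in 0X-Cys did not pass (limma adjusted p = 0.0549). DLGAP5, a spindle-stabilising protein, fell by 1.17 in 10X-Cys and by 0.39 in 0X-Cys. TPX2, which activates AURKA, fell by 0.50 in 10X-Cys, ASPM, a spindle pole protein, by 0.46, PRC1, the bundler of central spindle microtubules, by 0.35 and NUSAP1, a microtubule binder, by 0.23. The libraries of ASPM overlapped between 10X-Cys and 1X-Cys, and its call was lost in DESeq2 (adjusted p = 0.0115) and without a filter on low values (limma adjusted p = 0.0632), where CENPF (0.0336) and KIF18A (0.0132) lost theirs too. PRC1 and NUSAP1 are uncertain, because 3416 of 5523 and 3133 of 3608 of their exon bases overlap other annotated genes. For cytokinesis, ANLN, the scaffold of the contractile ring, fell by 0.34 in 0X-Cys and by 0.44 in 10X-Cys. ECT2, which activates RhoA at the cell equator, fell by 0.51 in 10X-Cys and had -0.23 in 0X-Cys (limma adjusted p = 0.0118), which passed in DESeq2 (adjusted p = 3.99e-03).

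Per gene, without regard to length, MKI67 and TOP2A had the highest counts of the module in all 3 media. MKI67, the Ki-67 coat protein of mitotic chromosomes (chr10:128096659-128126423), had 26529 and 24116 normalized counts in 0X-Cys. It had 28668, 29582, 27526 and 28784 in 1X-Cys and 21326, 20886, 18987 and 19440 in 10X-Cys. The ranges were apart, and MKI67 was 1.42-fold lower in 10X-Cys (-0.51, SE 0.04, limma adjusted p = 1.16e-08), while the -0.18 of 0X-Cys did not pass (limma adjusted p = 0.0172). TOP2A, the topoisomerase that untangles chromosomes (chr17:40388525-40417896), had 19305 and 19503 in 0X-Cys, 18664, 18059, 17324 and 16665 in 1X-Cys and 12285, 13019, 12238 and 12417 in 10X-Cys. Like HMMR it was highest without cysteine, though the 0.14 did not pass (limma adjusted p = 0.0662), and it was 1.41-fold lower in 10X-Cys (-0.50, SE 0.04, limma adjusted p = 1.10e-08). FOXM1, a transcription factor of the module, had 7388 to 8356 normalized counts in all 10 libraries. Its difference was 0.01 in 10X-Cys (95% interval -0.07 to 0.10) and 0.02 in 0X-Cys (95% interval -0.10 to 0.14). FOXM1 shares 782 exon bases with ITFG2.

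The members not called lower in 10X-Cys were thus 8, CDK1, CDC25B, CDC25C, NEK2, TTK, KIF20B, KIF2C and FOXM1, from 5 of the 8 role groups. Leaving out the 14 members that share exon bases with another annotated gene, 23 of 28 were called lower in 10X-Cys and 10 of 28 in 0X-Cys, with medians of -0.50 and -0.19. Of all genes, 22.9% and 8.51% were called lower.

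Other genes of the same phase, fixed as a list of 45, moved less uniformly. In 10X-Cys 25 were called lower and 9 higher, with a median of -0.20, and in 0X-Cys 7 lower and 3 higher, with a median of -0.02. The shares called higher, 9 and 3 of 45, were near the 23.1% and 7.39% of all genes called so. Lower calls stood against 22.9% and 8.51% of all genes. The largest falls in 10X-Cys were those of the spindle proteins PSRC1 (-1.37) and FAM83D (-1.08). The kinetochore gene SKA1 and FBXO5, an inhibitor of the anaphase-promoting complex, rose by 0.80 and by 0.71. In 0X-Cys the largest fall of this list was that of cyclin F (CCNF, -0.47), and the largest rise that of CKAP2L (0.52). Of 16 subunits and cofactors of the anaphase-promoting complex, 11 were lower and 3 higher in 10X-Cys, with a median of -0.30, and the largest fall was that of ANAPC15 (-0.77). In 0X-Cys 2 were lower and 1 higher, against 8.51% and 7.39% of all genes.

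Of 23 regulators of the program, 11 were called higher and 5 lower in 10X-Cys, against 23.1% and 22.9% of all genes, so that the share called lower was that of the background. CDKN1A, the CDK inhibitor p21, rose from a mean of 2199 normalized counts in 1X-Cys to 8490 in 10X-Cys (log2 fold change 1.96), and GADD45A, a stress-induced inhibitor of CDK1 activity, from 1412 to 5250 (1.90). The repressor E2F7 rose by 1.26, the stress kinases PLK3 and PLK2 by 1.02 and by 0.87, LIN54 by 0.94, the DREAM pocket protein RBL1 by 0.64 and MYBL2 by 0.49. NFYA, a subunit of NF-Y, fell by 0.69, and its partner NFYC rose by 0.26. In 0X-Cys 9 regulators were called higher, against 7.39% of all genes, among them E2F8 by 0.66, RBL1 by 0.60, NFYB by 0.58, E2F7 by 0.53 and LIN54 by 0.42, and CDKN1A was called lower (-0.44). CDKN1A thus had opposite signs in the altered media, and directly compared it was lower in 0X-Cys than in 10X-Cys (log2 fold change -2.39, limma adjusted p = 7.90e-24). RBL2 likewise rose in 0X-Cys (0.29) and fell in 10X-Cys (-0.30).

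The earlier part of the cell cycle, taken as 33 DNA replication and G1/S genes, showed no common direction. In 10X-Cys 8 were called higher and 12 lower with a median of -0.02, and in 0X-Cys 4 higher and 2 lower with a median of 0.06. Over all genes 23.1% were called higher and 22.9% lower in 10X-Cys and 7.39% and 8.51% in 0X-Cys, so the 8 higher in 10X-Cys and the 2 lower in 0X-Cys were near the background. The licensing factor CDT1 rose by 0.81 and cyclin E2 (CCNE2) by 0.66 in 10X-Cys, while the helicase subunit GINS4 fell by 0.78 and cyclin E1 (CCNE1) by 0.59. In 0X-Cys MCM5, a helicase subunit, rose by 0.36 and the flap endonuclease FEN1 fell by 0.36. Library by library, the median of this list stood between -0.05 and 0.12 log2 units from its 1X-Cys mean in all 10 libraries.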

How the data were processed

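Poly(A) RNA of HEK293T cells was sequenced in paired reads. Per the study's methods and the labels, the authors aligned the reads to GRCh38 with STAR 2.7.10b, counted them per Ensembl gene (the methods name featureCounts, the processing notes HTSeq) and scaled the libraries by DESeq2 size factors. The deposited signal values are these normalized counts. All values (100%, tolerance 0.001) were whole multiples of a step per library, which gave back the reads. Size factors hold most genes level, so a shift of all mRNA would not be seen.

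From the deposited values, log2(normalized count + 1) was fitted with limma 3.58.1 (R 4.3.3; lmFit, eBayes with trend), for each pair of groups alone, over 29045 genes with at least 10 in at least 3 libraries, and called at a Benjamini-Hochberg adjusted p of 0.01 or less, the study's filter and threshold. A log-scale test was used because the file holds normalized values. Fold changes are on the log2(value + 1) scale. Exact permutation tests were two-sided. Alternatives were edgeR 4.0.16 and DESeq2 1.42.0, run on the reads, other filters, scalings and left-out libraries. Counts were also simulated over 29045 genes, with 100 genes changed by 0.5 log2 units and 100 by 1. Of the 100 changes of 0.5, 69 were called in 0X-Cys against 1X-Cys and 86 in 10X-Cys against 1X-Cys. In 0X-Cys against 10X-Cys 70 were called. The changed genes were not matched to the members in level, and far fewer genes changed than were called in the data. These shares are therefore not rates for the members.

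The members and lists were chosen with earlier results of these data known, so lists carry counts and medians and no test. Values by library are given for CDK1, CCNB1, PLK1, AURKA, MKI67 and TOP2A and, per comparison, for the 3 largest called rises and falls among members; further lists name their largest called changes, and regulators freely. Symbols and exons came from GENCODE release 44. Replicates of a group differed by more than sampling noise (chi-square per degree of freedom of 3.53 to 14.7). Deviations of same-numbered libraries correlated at -0.116 to 0.103, so the numbers were not taken as pairs.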

Additional observations from a re-analysis of the deposited data

Results flagged for a closer look

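Groups of 4 libraries were screened for a library far from the other 3, by the gap to the nearest library over the range of the group, in 88 groups (42 genes and 2 summaries in 1X-Cys and 10X-Cys), and 4 were found where about 4 are expected by chance alone.

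CCNB1 stood at 7392 normalized counts in 1X-Cys replicate 1, with the other 1X-Cys libraries between 6746 and 6825. BUB1 stood at 3216 in 10X-Cys replicate 2, with the others between 3061 and 3083. FOXM1 stood at 8094 in 10X-Cys replicate 3, with the others between 7758 and 7809. The share of nuclear reads on the 42 genes stood at 0.544% in 1X-Cys replicate 4, with the others between 0.570 and 0.572%.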

How the results depend on the processing

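Over 2352 alternative values of single members, 2123 kept direction and call, 131 kept direction and lost the call, 64 gained it and 34 changed sign, none of them called in the fit reported. In 10X-Cys the count called lower was 31 to 35 under every alternative except a 2-fold requirement, which left 8 lower and 0 higher, and the restriction to members that share no exon bases, which left 23 lower and 0 higher of 28. The cause was not tested where no construction is named here.

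The 0X-Cys against 1X-Cys calls depended on the setting. Without a filter, with 57308 genes tested, 2 members were lower, CDC20 and BUB1B, and 738 genes called in all. KIF20A lost its call there (limma adjusted p = 0.0123). At an adjusted p of 0.05 1 member was higher and 7987 genes were called, and with 2-fold required 0 members were lower and 609 genes called. Equal totals over nuclear genes gave 1 member higher, and quantile normalization 2 higher with a member median of -0.14. Leaving out a library gave 3 to 18 members lower, 0 to 1 higher and 978 to 6300 genes called in all, with medians of -0.21 to -0.17.

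In 10X-Cys against 1X-Cys the count called higher was 2 with a pseudocount of 10, a minimum of 50, edgeR or DESeq2, 3 with equal totals, quantile normalization or all groups in a fit, 4 at an adjusted p of 0.05 and 0 to 3 without a library. The member median was -0.42 under quantile normalization, and with 2-fold required 2942 genes were called. In 0X-Cys against 10X-Cys the count called lower was 1 without a filter (8864 genes called), under quantile normalization, with all groups in a fit and for members that share no exon bases, and 1 to 2 without a library. With 2-fold required 2 members were higher, 0 lower and 3610 genes called.

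With the replicate number as a block, 20 members were lower and 1 higher in 0X-Cys and 3 were higher in 10X-Cys. The libraries shared only a number: same-numbered deviations correlated at -0.116 to 0.103. Under the block the 0X-Cys differences of TTK, KIF11 and FOXM1 became -0.0094, -0.019 and -0.024, and against 10X-Cys KIF20B became -0.20 (limma adjusted p = 1.58e-03) and KIF2C 0.016.

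Small differences changed sign elsewhere. In 0X-Cys against 1X-Cys equal totals gave AURKB 0.03, KIF4A 0.020 and TPX2 0.016, quantile normalization gave AURKB 0.055, KIF4A 0.049, CENPF 0.013 and TPX2 0.024, and edgeR gave AURKB 0.0059. Without a library AURKB ran from -0.0426 to 0.020, KIF4A from -0.041 to 0.0035, TPX2 from -0.046 to 0.0086, CENPF from -0.14 to 0.060, FOXM1 from -0.0090 to 0.050 and KIF11 from -0.033 to 0.047. In 10X-Cys FOXM1 ran from -0.014 to 0.046 and CDC25B from -0.0064 to 0.032. In 0X-Cys against 10X-Cys MAD2L1 ran from -0.12 to 0.041, FOXM1 from -0.0075 to 0.019, NEK2 from -0.035 to 0.13, KIF20B from -0.12 to 0.15 and KIF2C from -0.021 to 0.0079, and quantile normalization gave KIF2C 0.0014.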
